A study of Homo sapiens with 4 samples.

Results

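In peak lists of N6-methyladenosine (m6A) in CaSki cells, 10 genes that set or mark epithelial identity, or its switch to a mesenchymal state, were looked up by their symbols: the splicing regulators ESRP1 and ESRP2, the transcription factors GRHL2, ELF3 and TP63, the adhesion proteins EPCAM and CDH1, the filament protein VIM and the repressors ZEB1 and ZEB2. Of these 10 genes, 9 were among the 8220 genes with a listed peak, and ZEB1 had no row in either list under its symbol, its gene identifier or a synonym. CaSki is a long-established human line derived from a squamous carcinoma of the cervix, with human papillomavirus DNA in its genome. Control cells were grown at 37 °C in medium with serum, and heated cells of the same line were held at 42 °C for 60 min. For each condition there was 1 library of RNA enriched with an antibody kit for m6A and 1 input library, and the authors deposited 1 peak list per condition. With 1 immunoprecipitated library per condition no difference has a replicate check, and none was tested.

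Epithelial cells hold together through E-cadherin junctions and keep their identity through a small circuit of regulators. GRHL2, ELF3 and p63 activate epithelial genes, and the ESRP proteins select epithelial exons of many transcripts. ZEB1 and ZEB2 repress E-cadherin and other epithelial genes, GRHL2 and ZEB1 are known to repress each other, and vimentin filaments are a standard mark of the mesenchymal state. The modification m6A is the most common internal mark of mRNA, is often dense near stop codons and affects splicing, decay and translation. A peak in this assay is a stretch where antibody-bound RNA fragments pile up over background. It does not resolve a base, and it requires that the RNA be present, so that a gene without a peak can be unmethylated, little expressed or under the caller's threshold. Input RNA levels were not analysed here, and a change in methylation cannot be told apart from a change in RNA amount.

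The control list held 14367 peaks in 7138 genes and the heat list 15472 peaks in 7112 genes. Each peak carries a fold enrichment over background and a significance score, minus 10 times log10 of the p-value from the peak caller, both as the authors deposited them. The score starts at 50. Exactly 3100 was given to 1398 control and 707 heat peaks, and 68 and 45 peaks scored higher, up to 3233 and 3228. The lists also give a false discovery rate for each peak, and its lowest value was 8.22% in control and 20.6% in heat. Percentiles below give the share of peaks of the same list with a lower value. The median fold was 43.3 over all control peaks and 31.6 over all heat peaks. How the libraries were scaled to each other is not stated, so folds were read within a list and not as a change. Positions are hg19 and 1-based. The files give a transcript for each peak but neither its strand nor the exon or untranslated region it lies in. Of 14 epithelial markers, mostly of squamous epithelium, 11 had a peak, 5 in both lists and 6 in heat only, so that 5 of 14 had a control peak. Among the keratins KRT14 and KRT8 were in both lists, and KRT5, KRT15 and KRT17 in heat only. A peak was also listed for 1 of 7 fibroblast, 1 of 4 endothelial and 0 of 4 immune markers.

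In the authors' lists 4 of the 10 genes carried peaks in both conditions, GRHL2, ELF3, CDH1 and TP63. Another 3 were listed in control only, ESRP1, ESRP2 and ZEB2, and 2 in heat only, EPCAM and VIM. The background over all 8220 genes was 73.4% in both lists, 13.5% control only and 13.2% heat only. The 10 genes had 17 control peaks and 20 heat peaks. In the control list 11 of these peaks overlapped a heat peak (64.7%, exact 95% binomial interval 38.3 to 85.8%, counting error only), beside 71.7% of all control peaks. In the heat list the same number, 11, overlapped a control peak (55.0%, 31.5 to 76.9%), beside 66.7% of all heat peaks. Both intervals include the share over all peaks. The peaks of 1 gene share their RNA and are not independent of each other.

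**Figure D1:**
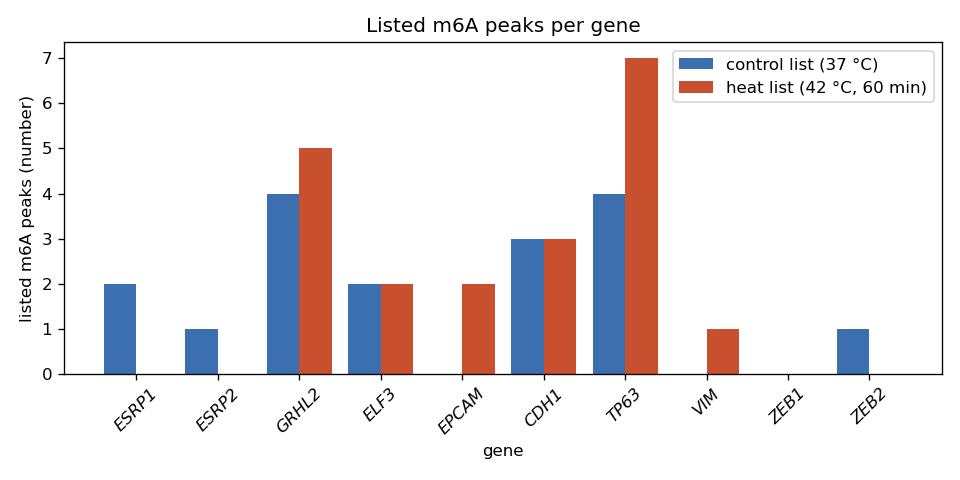
Number of listed m6A peaks (vertical axis) for each of the 10 genes (horizontal axis) in the control (blue) and the heat list (red), with 1 library per condition. TP63 has 4 control and 7 heat peaks, ESRP1, ESRP2 and ZEB2 have control peaks only, EPCAM and VIM heat peaks only, and ZEB1 has none.

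Both epithelial splicing regulators were listed in control and not in heat. ESRP2 had 1 control peak of 1769 bases, annotated to NM_024939 on chromosome 16 at 68262450 to 68264218. Its fold of 162 stood at the 91.4th percentile of the control list, and its score was 3100. The listed false discovery rate of this peak was 18.5%. Of 1319 genes whose highest control score was 3100 or more, 16 (1.21%) had no heat peak, ESRP2 among them. By number of peaks its status was more common: of the 3760 genes with 1 control peak, 25.2% were control only. In the heat list 4 peak numbers were unlisted between the peaks that flank this position, so a heat peak that the files do not list cannot be told apart from no peak. Such unlisted numbers are the rule: their median was 6 around the single-list peaks of either list, and 133 of 4042 control peaks and 181 of 5146 heat peaks had none.

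ESRP1, the paralog of ESRP2 and the family member most often used as an epithelial marker, had 2 weaker and shorter control peaks on chromosome 8, both annotated to NM_017697. The first, of 133 bases at 95677155 to 95677287, had a fold of 14.3 and a score of 77.6. The second, of 219 bases at 95683681 to 95683899, had a fold of 27.5 and a score of 145. They stood at the 3.15th and 24.1st percentile of the control folds, far below the ESRP2 peak. Of the 1707 genes with 2 control peaks, 8.08% were listed in control only, and of the genes in its decile by highest control score, the third from the lowest, 25.2%. In the heat list 12 numbers were unlisted around each ESRP1 peak. ESRP1 and ESRP2 thus had the same status in the lists at very different strengths, and only ESRP2 was still listed above the median score of both lists pooled, 228.

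GRHL2, a grainyhead-family activator of E-cadherin and junction genes, carried the strongest heat peak of the set by score, and high-scoring peaks in both lists. It had 4 control and 5 heat peaks over the same 177 kb of chromosome 8. Of these, 3 had the same start and end in both lists. The largest, of 3136 bases at 102678817 to 102681952, had a score of 3100 and a fold of 73.2 in the control list, and a score of 2853 and a fold of 46.0 in the heat list. These folds stood at the 72.4th and 71.1st percentile of their lists, and the listed false discovery rates were 18.5% and 32.6%. A peak of 350 bases at 102504668 to 102505017 had a fold of 53.8 in control and 75.7 in heat.

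The order of folds along GRHL2 differed between the lists. The peak of 394 bases at 102570647 to 102571040 had the highest control fold of the 3 shared peaks, 95.5, and the lowest heat fold, 13.2. Relative to the 3136-base peak of the same list this was 1.30 in control and 0.288 in heat. Its score was 2447 in control and 232 in heat, where the listed false discovery rate was 99.4%. Among the 319 genes with 3 peaks of the same boundaries in both lists, 20.4% likewise had their highest control fold at the peak of lowest heat fold. That share counts the order only and does not measure how far the folds differed. The single-list peaks of GRHL2 lay to either side of this peak. In control there was 1, of 344 bases at 102585896 to 102586239 (28.2-fold, score 323). In heat there were 2, of 68 bases at 102564943 to 102565010 (26.4-fold, score 75.7) and of 56 bases at 102582567 to 102582622 (22.6-fold, score 123). Both of these heat peaks had a listed false discovery rate of 100%. The control-only peak was annotated to another transcript than the rest, uc011lhi.1, and lay 3273 bases from the nearest heat peak.

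ELF3, an ETS-family factor of epithelial differentiation, had 2 long peaks on chromosome 1 in each list. The first was annotated to ENST00000359651 and ran from 201978353 to 201980427 in control, and in heat it began 17 bases later and ended at the same base. The second was annotated to NM_004433 and ran from 201984337 to 201985731 in control, and in heat it ended 90 bases further on. The second had the higher fold in both lists, with 131 against 75.6 in control and 30.7 against 18.0 in heat. The first peak thus had 0.580 of the fold of the second in control and 0.585 in heat. The control folds stood at the 73.4th and 87.7th percentile of their list, and the heat folds at the 16.4th and 48.0th. The score of the first peak was 1938 in control and 100 in heat, where its listed false discovery rate was 100%. The score of the second was 3100 in control and 2603 in heat, with listed false discovery rates of 18.5% and 30.7%.

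TP63 encodes p63, the transcription factor that maintains basal squamous epithelium, and it had the most peaks of the set, 4 in control and 7 in heat. At least 3 more heat than control peaks were found for 3.91% of the 6030 genes in both lists. All 4 control peaks, of 145 to 255 bases, recurred in the heat list with the same boundaries. They lay on chromosome 3 at 189526061 to 189526315, 189582021 to 189582207, 189604183 to 189604340 and 189607129 to 189607273, all annotated to NM_003722. In this order their control folds were 14.4, 27.6, 13.2 and 23.3, and their heat folds 11.5, 10.8, 18.6 and 14.0. The second of them was the highest in control and the lowest in heat, as in 12.3% of the 138 genes with 4 peaks of the same boundaries. All of the TP63 peaks were weak: each of the 11 had a listed false discovery rate of 100%, and the highest score was 218 in control and 179 in heat.

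The 3 further heat peaks of TP63 extended its listed span from 81.2 to 105 kb. One lay 18429 bases below the lowest control peak, at 189507449 to 189507631, with a fold of 19.6 and a score of 176. It was the only TP63 peak annotated to NM_001114980, a transcript of the short ΔNp63 class that starts from an internal promoter and predominates in squamous cells, whereas NM_003722 is a transcript of the long TAp63 class. The classes share most exons, so an annotation to NM_003722 does not show which class carried a peak. The other two were a peak of 83 bases at 189587113 to 189587195 (12.4-fold, score 65.2) and a peak of 725 bases at 189611995 to 189612719 (7.99-fold, score 56.0). With 14367 top-scored peaks from each list TP63 had 4 control and 5 heat peaks, and with a score above 228 it had none in either list. In the control list 6, 1 and 4 numbers were unlisted around these positions, from the lowest to the highest.

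**Figure D2:**
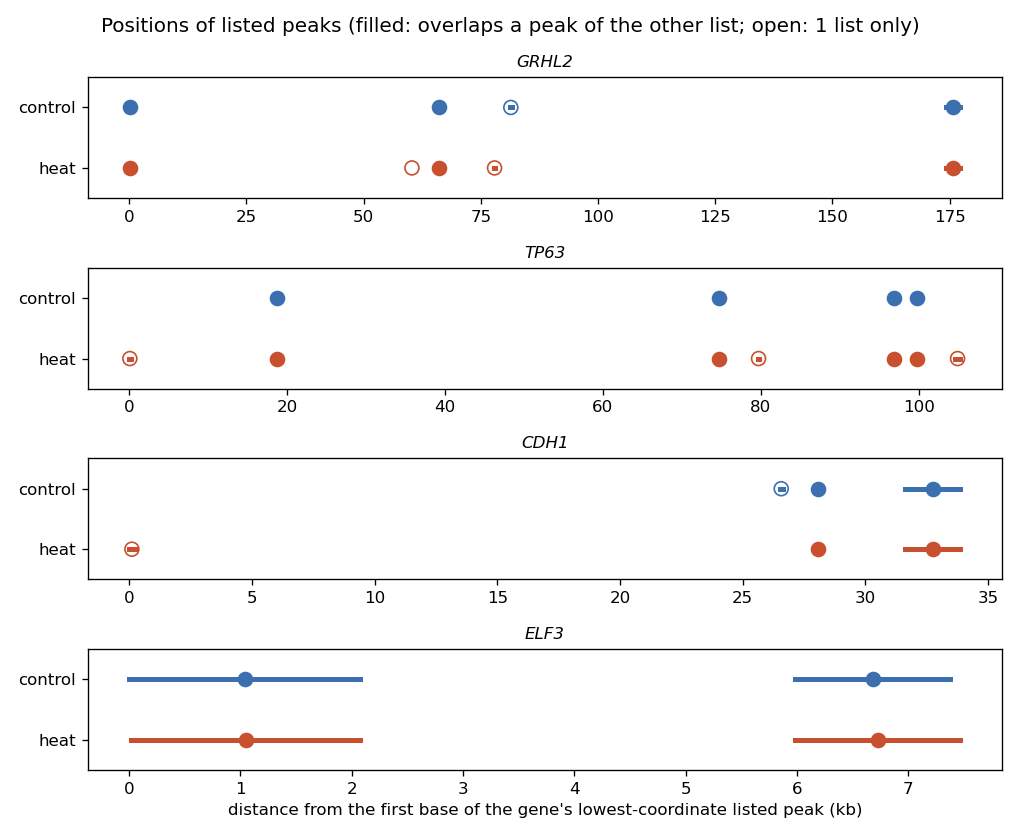
Positions of the listed peaks of GRHL2, TP63, CDH1 and ELF3, as distance in kb from the first base of the lowest-coordinate peak of each gene (horizontal axis), in the control list (blue) and the heat list (red). Bars span each peak and circles mark its centre, filled where it overlaps a peak of the other list and open where it does not. All 4 control peaks of TP63 recur in heat, and the 3 open heat peaks extend its span from 81.2 to 105 kb.

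CDH1, which encodes E-cadherin, the adhesion molecule of epithelial junctions, had 3 peaks in each list, all annotated to NM_004360 on chromosome 16. A peak of 2252 bases at 68867193 to 68869444 had a fold of 21.7 in both lists, with scores of 263 in control and 347 in heat. A peak of 144 bases at 68863557 to 68863700 had a fold of 16.3 in control and 11.3 in heat. Both had the same boundaries in the lists, and in both lists the longer one had the higher fold. The third peak differed. In control it lay at 68862077 to 68862207, 1349 bases from the nearest heat peak, with a fold of 23.7 and a score of 182. In heat it lay at 68835573 to 68835796, 26280 bases from the nearest control peak, with a fold of 8.56 and a score of 61.9. That heat fold stood at the 0.679th percentile of its list.

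EPCAM, a membrane adhesion protein of simple and transformed epithelia, had 2 heat peaks and none in control, both annotated to NM_002354 on chromosome 2. The peak of 434 bases at 47596287 to 47596720 had a fold of 25.7 and a score of 116, and the peak of 281 bases at 47613711 to 47613991 a fold of 12.0 and a score of 64.0. Their folds stood at the 36.8th and 4.19th percentile of the heat list and their scores at the 32.6th and 10.3rd. Of the 1673 genes with 2 heat peaks, 10.6% were listed in heat only. In the control list 10 numbers were unlisted around each of these positions.

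The mesenchymal genes had few peaks, all below the median fold and score of their lists. VIM had 1 heat peak of 710 bases on chromosome 10 at 17271275 to 17271984 (NM_003380), with a fold of 8.58 and a score of 117, at the 0.704th and 32.9th percentile of the heat list. ZEB2 had 1 control peak of 733 bases on chromosome 2 at 145146863 to 145147595 (NM_014795), with a fold of 26.7 and a score of 62.4, at the 22.5th and 8.17th percentile of the control list. The mesenchymal filament gene was thus listed in heat, the ZEB2 repressor in control, and ZEB1 in neither. Being in 1 list only is common for genes this weak. In the decile of control genes with the lowest best score, which held ZEB2, 48.7% were control only, and in the second-lowest decile of heat genes, which held VIM and EPCAM, 30.1% were heat only. Around the VIM peak 11 control numbers were unlisted, and around the ZEB2 peak 17 heat numbers.

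**Figure D3:**
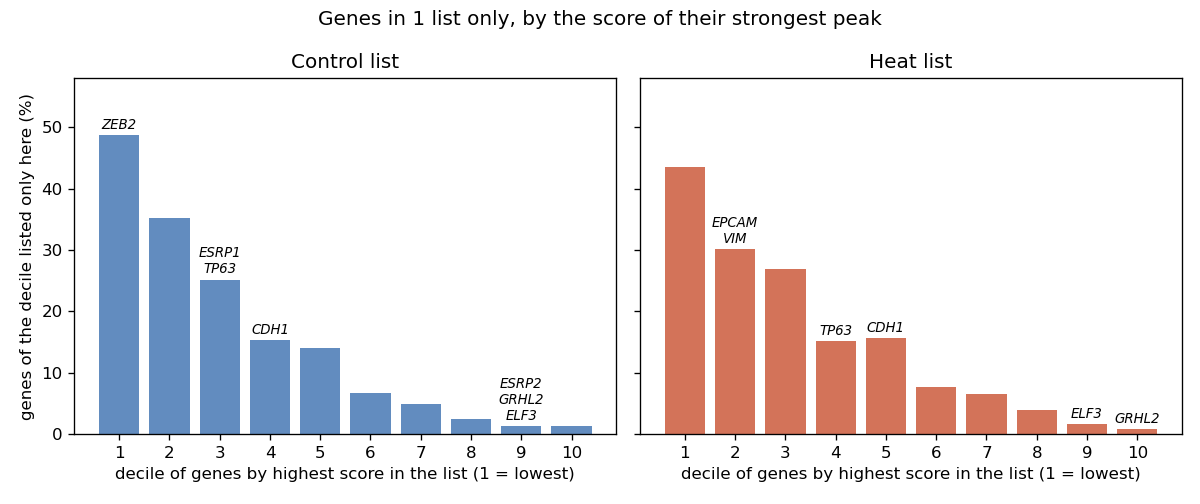
Share of genes listed only in the control list (left) or only in the heat list (right), in percent (vertical axis), by decile of genes ordered by their highest score in that list (horizontal axis, 1 is the lowest), with the named genes written above the decile that holds them whatever their own status. Genes whose highest score is exactly 3100 are tied, so their order within the upper deciles is arbitrary. The share is 48.7% in the lowest control decile, which holds ZEB2, and 1.26% in the decile that holds ESRP2.

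Across the set, the peaks were weaker by median fold than the peaks of their lists in general. Their median fold was 27.5 in control, beside 43.3 for all control peaks, and 16.0 in heat, beside 31.6. A listed false discovery rate of 100% was given to 9 of 17 control peaks (52.9%, beside 48.5% of all) and to 15 of 20 heat peaks (75.0%, beside 53.2%). TP63 alone gave 4 of these control peaks and 7 of these heat peaks. Every peak of ESRP1, EPCAM, VIM and ZEB2 also had this rate, and so did the CDH1 peaks other than the 2252-base one. The rest were heat peaks, the first of ELF3 and the 2 heat-only peaks of GRHL2. A score of 3100 or more was given to 3 of 17 control peaks (17.6%, beside 10.2% of all) and to 0 of 20 heat peaks (beside 4.86% of all). The set was split within itself. In control ELF3, ESRP2 and 3 of 4 GRHL2 peaks lay above the list's median fold, and each peak of CDH1, TP63, ESRP1 and ZEB2 lay below it. In heat 2 GRHL2 peaks lay above the median fold and the other 18 peaks lay below it. The 9 heat peaks with no control partner had a median fold of 12.4 and a median length of 224 bases, and the 11 with a partner 18.0 and 350 bases. Over all heat peaks these medians were 25.5 and 206 bases without a partner, and 36.7 and 633 bases with one. In control the 6 peaks without a partner had a median fold of 27.1 and the 11 with one 27.6, beside 34.7 and 50.1 over all control peaks. Of the 11 shared peaks 9 (81.8%) had the same boundaries in both lists, beside 65.8% of all shared control peaks; the exceptions were the peaks of ELF3.

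**Figure D4:**
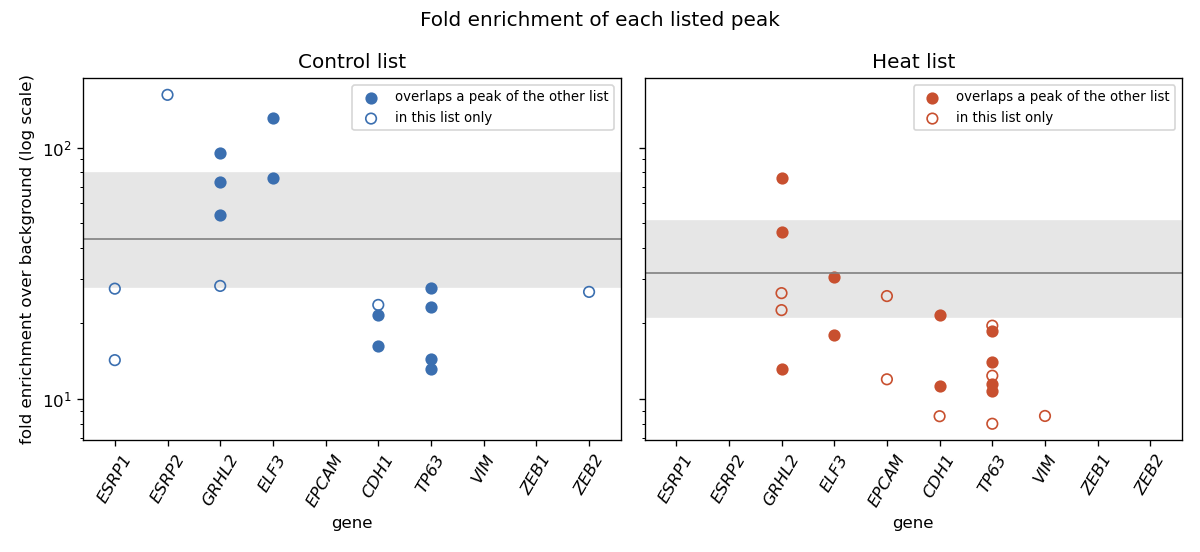
Fold enrichment over background of each listed peak (vertical axis, log scale) for the 10 genes (horizontal axis), in the control list (left) and the heat list (right), filled where the peak overlaps a peak of the other list and open where it does not. The grey band spans the lower to the upper quartile of all peaks of that list and the line is its median, 43.3 in control and 31.6 in heat. Peaks of CDH1 and TP63 lie below the line in both lists, and 2 GRHL2 peaks lie above it in heat.

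Of 82 other genes of the same circuits, in 4 lists, 56 had a peak, 48 of them in both lists, 2 in control only and 6 in heat only, beside 73.4%, 13.5% and 13.2% of all genes. No list was tested against the rest, and its counts are a description. Among epithelial transcription factors 9 of 12 genes with a peak were in both lists, with TFAP2A, an AP-2 factor, at 4 control and 3 heat peaks. KLF5 had 3 in each, and TFAP2C 3 and 4. GRHL3, a paralog of GRHL2, was control only, with 1 peak of 15.7-fold, and so was TP73, a paralog of TP63, with 1 of 54.3-fold.

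Junction genes had peaks in 17 of 26 cases, and 16 of these were in both lists. CTNND1, the p120 catenin that stabilises E-cadherin, had 6 peaks in each. ST14, the epithelial protease matriptase, had 4 and 5, and MARVELD3, a tight junction membrane protein, 4 in each. PRSS8, the protease prostasin, was heat only (22.6-fold, score 89.9). No junction gene was listed in control only.

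Splicing factors and targets of epithelial splicing had peaks in 12 of 14 genes, 11 of them in both lists. HNRNPM, an RNA-binding protein known to compete with ESRP1, had 8 control and 6 heat peaks. ENAH, an actin regulator with an epithelial exon, had 5 and 4. RBFOX2, a splicing factor of the mesenchymal programme, had 4 and 6, and ARHGEF11, a guanine nucleotide exchange factor with epithelial and mesenchymal isoforms, 3 and 9. MAP3K7, the kinase TAK1, was heat only with 1 peak of 33.5-fold. HNRNPM and RBFOX2 are named because they were in both lists with many peaks, so their place cannot be set against that of the ESRP genes.

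Mesenchymal transition factors and markers had peaks in 15 of 26 genes, 12 in both lists and 3 in heat only. The heat-only genes were FN1, TGFBI and FOXC2. FN1, the matrix protein fibronectin, had 3 peaks, with a fold of 22.5 at the one of highest score. TGFBI, a matrix protein induced by TGF-beta, had 1 of 18.5-fold, and FOXC2, a forkhead factor, 1 of 25.5-fold. The list had 22 control and 46 heat peaks, the epithelial factors 25 and 21, the junction genes 50 and 58, and the splicing list 38 and 46. Over all genes there were 14367 control and 15472 heat peaks. Within the mesenchymal list 2 genes made up much of the difference. TCF3, which encodes the E-box factors E12 and E47, had 1 control and 10 heat peaks, and MMP2, a gelatinase, had 4 and 8. TGFB1 had 3 and 4 peaks, and CTBP2, a corepressor that ZEB proteins recruit, 3 in each. Of the 48 genes of the 4 lists that were in both conditions, 4 had at least 3 more heat peaks and 0 had at least 3 fewer, beside 3.91% and 0.978% of all genes in both lists. These counts have no replicate check, and over all genes in both lists 1508 had more peaks in heat and 1245 fewer.

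**Figure D5:**
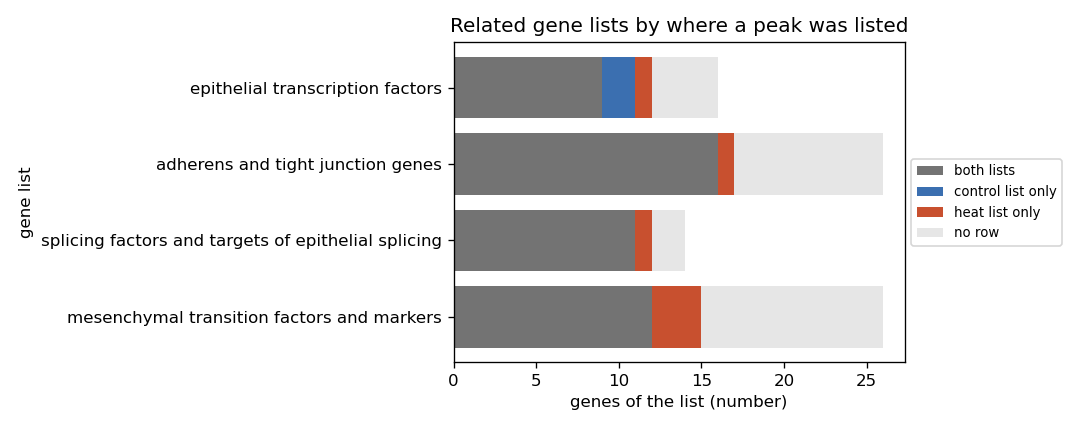
Number of genes (horizontal axis) in each of 4 lists of related genes (vertical axis) with a peak in both lists (dark grey), in the control list only (blue), in the heat list only (red) or with no row (light grey). Most genes with a peak are in both lists, 48 of 56, and the 3 heat-only mesenchymal genes are FN1, TGFBI and FOXC2.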

How the data were processed

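Peak lists came from m6A MeRIP-seq of CaSki cells. The submitters' processing notes name cutadapt 1.9.3, STAR and the hg19 build. Peak names begin with MACS, per the file headers; its version and settings are not stated in them. The deposited score is minus 10 times log10 of the p-value, the fold enrichment is a ratio over background, and the false discovery rate is in percent, all per the file headers. In the heat list 1 line was not analysed here. Total reads are unknown, so the depth behind each peak is too.

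The sheet names matched the sample titles. Starts were raised by 1 to be 1-based. Peaks overlapping by at least 1 base were called shared (Python 3.11.15, pandas 2.3.3, numpy 2.4.6), and exact binomial intervals came from scipy 1.17.1. The overlap search was tested on simulated data. Within chromosomes the peak numbers rise with position, so numbers missing between neighbouring listed peaks were counted. The alternatives were stricter limits on fold, score or false discovery rate, lists of equal length, a wider overlap and an overlap within the same gene. The text names all 10 genes and, of each related list, the genes in 1 condition only and up to 4 genes in both with the most peaks; a few genes that this rule takes are counted and otherwise not reported here. The genes and lists were chosen with earlier results of these data known. No hg19 sequence was used here.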

Additional observations from a re-analysis of the deposited data

How the results depend on the processing

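Of 32 recomputed counts under 8 alternatives, 13 stayed within 1.5 times the value reported and 19 moved further, mostly because stricter limits keep fewer peaks. With a fold over 36.5 (the pooled median) 1 of the 10 genes was in both lists and 0 in heat only, and 2 control and 2 heat peaks were shared. ELF3 was then listed in control only. Folds were lower in the heat list as a whole, and this limit kept 8488 control but 6405 heat peaks, so it favours control-only listing. With 7183 top-scored peaks from each list, 2 genes were in both, 1 in control only and 1 in heat only, and 4 control and 4 heat peaks were shared; CDH1 was then the heat-only gene. With a score above 228, and also with a listed false discovery rate under 100%, 1 gene was control only, 0 were heat only, and 5 control and 5 heat peaks were shared. With a score above 228 in 1 list and no peak in the other, 1 gene was control only and 0 were heat only. In each of these settings ESRP2 was control only and GRHL2 was in both lists, while ESRP1, EPCAM, TP63, VIM and ZEB2 passed none of these limits. With 14367 top peaks from each list every gene kept its place, and 10 control and 10 heat peaks were shared. Requiring 50% overlap of both peaks, or the same gene, left 11 shared peaks in each list. No paired analysis was possible because each condition has 1 immunoprecipitated library. Over all genes the share in control only was 31.8% with the fold limit, 20.9% with 7183 top peaks, 22.8% with the score limit, 21.3% with the false discovery rate limit and 5.88% with no peak allowed in the other list, and the share in heat only 12.9%, 14.7%, 12.9%, 13.9% and 4.95%. The depth behind each peak is unknown, so absence from a list does not show absence of the mark.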

Other observations

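Epithelial markers, mostly of squamous epithelium and several of them known targets of p63, had listed peaks in 11 of 14 genes. Of these, 5 were in both lists, 6 in heat only and 0 in control only, beside 13.2% of all genes in heat only. They had 11 control and 33 heat peaks, beside 14367 and 15472 over all genes. The heat-only markers were the keratins KRT5, KRT15 and KRT17, the plaque protein JUP, the desmosomal protein PERP and the hemidesmosomal integrin ITGB4. JUP had 4 peaks, PERP 1 and ITGB4 8. At the peak of highest score of each gene the folds were 14.0, 28.1, 16.2, 12.8, 15.9 and 29.1, in the order named. In this order their best scores were 600, 1577, 833, 1391, 278 and 1306. These scores stood between the 58.4th (PERP) and the 89.5th (KRT15) percentile of the heat list, above those of the heat-only genes VIM and EPCAM. By fold the markers were not strong: all 6 of these folds lay below the median of all heat peaks, 31.6. The higher EPCAM fold, 25.7, was above those of KRT5, KRT17, JUP and PERP, and the VIM fold, 8.58, was below all 6. KRT14 had 1 peak in each list and DSP, the desmosomal plaque protein desmoplakin, 4 and 8. None of these counts was tested.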
